A study of Mus musculus with 6 samples.

Results

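Myosins are motors that walk along actin filaments by hydrolysing ATP, and the set described here holds 8 unconventional myosins (Myo1c, Myo1d, Myo1e, Myo5a, Myo5b, Myo6, Myo9a and Myo10) together with Myh9, which encodes the heavy chain of the conventional nonmuscle myosin IIA. These 9 genes were chosen by name with the genotype differences of the same samples already known. The study's own list of differing transcripts holds 1 probe set each of Myo5a, Myo5b and Myo6. All 22 probe sets that carry the name of 1 of the 9 genes and of no other gene are reported, out of 22626 probe sets tested and 12393 genes with a probe set of their own. Lens RNA came from newborn mice on the first day after birth, 3 of them wild-type on the NMRI background and 3 heterozygous for Pax6 (Pax6 lacZ/+), in which lacZ takes the place of 1 Pax6 copy in every cell of the animal. Both lenses of a mouse made up a sample, and each sample was hybridized to its own Affymetrix array. Signals are linear intensities that the authors obtained with robust multichip average (RMA), and each genotype difference is the mean log2 signal of heterozygous samples less that of wild-type samples, with the standard error (SE) of a limma fit over all probe sets. Only 3 arrays per genotype limit the precision.

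Unconventional myosins carry cargo, tether membranes and shape protrusions, each class by its own tail. Class V myosins move recycling endosomes and pigment granules toward the plus ends of actin, myosin VI is the motor that moves the other way and serves endocytosis, and class I myosins link membranes to the cortex. Myosin IIA assembles into filaments and contracts the actin cortex. In the lens an epithelium covers the anterior face, and its cells elongate into fibers whose shape and packing depend on actin and its motors.

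The arrays had median signals between 21.4 and 22.8. The 7 measured lens fiber markers, crystallins and membrane proteins among them, summed to between 64110 and 77050 in every sample, and all lay above 50. Of the 6 lens epithelium markers, 5 lay above 50, and Foxe3 was at background. Probe sets of 33 olfactory receptors, taken as a guide to background, had medians of 9.65 to 11.02 per sample, and 95% of their values were at or below 13.5. The brightest Pax6 probe set read 1169, 1760 and 963 in wild-type replicates 1 to 3, and 942, 1170 and 882 in heterozygous replicates 1 to 3, a difference of −0.34 ± 0.24 (SE), and of the other 4 Pax6 probe sets 3 were lower and 1 higher. Samples with the same replicate number deviated together from the means of their genotypes, with correlations of 0.604 to 0.734 over all probe sets, and what the numbers share is not stated. In this bulk tissue, fewer cells of a type and less RNA per cell cannot be told apart.

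Of the 22 myosin probe sets, 6 had a median signal of at least 100, 3 lay between 50 and 100, and 13 lay under 50. Myo5a, Myo5b, Myo6, Myo9a, Myo1c and Myh9 each had at least 1 probe set of 50 or more. Myo1d, Myo1e and Myo10 had none. The class V and VI motors read lower in Pax6 heterozygous lenses at 5 of their 6 probe sets. Myo1c read higher at its brightest probe set and at a dim one. Myo9a and Myh9 varied more between mice than between genotypes. Since the genes were chosen with this contrast in view, the genotype differences are a description and are not tested as evidence.

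**Figure D1:**
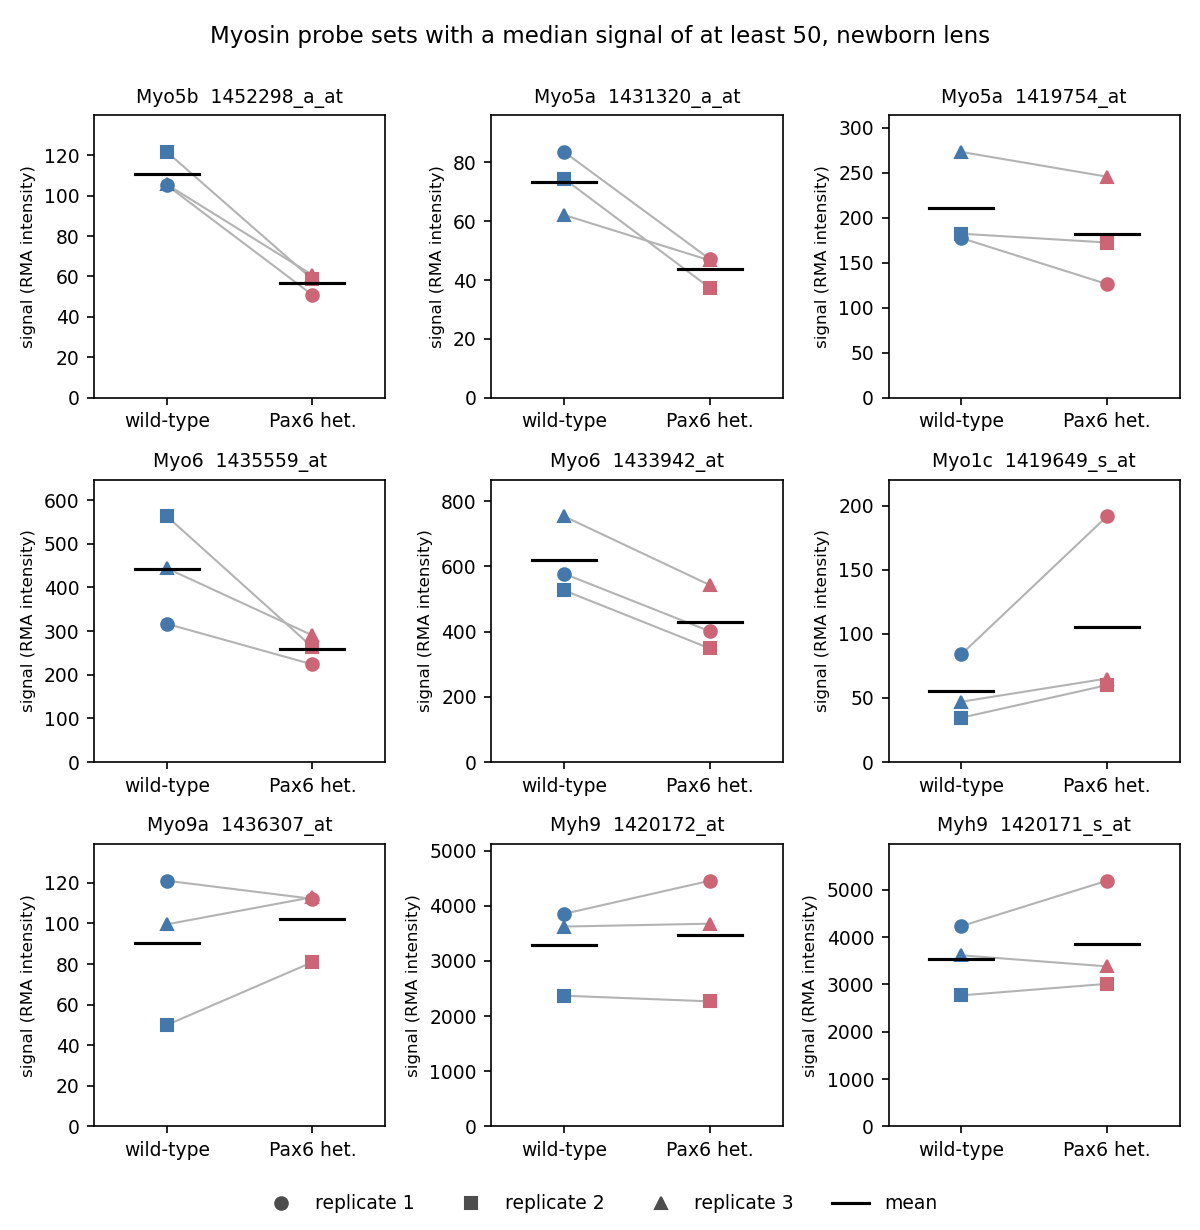
Signals of the 9 myosin probe sets with a median of at least 50. The vertical axis of each panel is the linear RMA intensity from 0, the horizontal axis the genotype, symbols mark the replicate number, grey lines join samples with the same number and black bars are means of 3 mice. Both genotypes are fully apart in Myo5b (wild-type at 105 or above, heterozygous at 60.7 or below), in 1 Myo5a and in 1 Myo6 probe set.

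Myo5b, the class V motor that carries Rab11 recycling endosomes in epithelial cells, had the lowest heterozygous share of wild-type signal among all 22 probe sets. Its only probe set read 105, 122 and 105 in wild-type replicates 1, 2 and 3, and 50.8, 58.5 and 60.7 in heterozygous replicates 1, 2 and 3. All wild-type samples were therefore above all heterozygous samples, and the spread within a genotype was small beside the gap. The means were 111 ± 9.44 and 56.7 ± 5.20 (SD, n = 3 mice each), so that heterozygous lenses stood at 51.2% of wild-type, a difference of −0.97 ± 0.13 (SE). The same-numbered pairs differed by −1.05, −1.06 and −0.80.

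Myo5a, the class V motor whose loss dilutes coat colour and which carries melanosomes and vesicles of neurons, had 2 probe sets that differed in size of response. At the probe set on the study's list the wild-type samples read 83.6, 74.5 and 62.2 and the heterozygous samples 47.2, 37.4 and 46.7. These values did not overlap, and the difference was −0.74 ± 0.16 (SE). At the brighter probe set the wild-type samples read 177, 182 and 273 and the heterozygous samples 126, 173 and 246. Here the genotypes overlapped, with replicate 3 the highest of each genotype, and the difference was −0.24 ± 0.29 (SE). Leaving out heterozygous replicate 1 gave −0.01, leaving out wild-type replicate 3 gave −0.04, and leaving out heterozygous replicate 3 gave −0.49. Each same-numbered pair was lower in the heterozygous sample at both probe sets, by −0.83, −0.99 and −0.41 at the first and by −0.49, −0.08 and −0.15 at the second. Pigment cells, which use Myo5a, left transcripts in these samples. The 7 measured pigment cell markers summed to 1385, 669 and 613 in wild-type and to 1439, 634 and 722 in heterozygous replicates 1, 2 and 3, 2 of them (Slc45a2 and Gpr143) with medians within the background guide. Replicate 1, the highest of each genotype in these markers, was also the highest of each genotype at the listed Myo5a probe set and the lowest at the brighter one. The part of pigment cells in the Myo5a values was not tested.

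Myo6, the minus-end directed motor of endocytosis whose loss causes deafness in the mouse, read lower in heterozygous lenses at both of its bright probe sets. The probe set on the study's list read 317, 563 and 444 in wild-type and 224, 263 and 290 in heterozygous samples. The lowest wild-type sample, replicate 1, was still above the highest heterozygous sample, replicate 3. Means were 441 ± 123 and 259 ± 33.4 (SD, n = 3 mice each), a difference of −0.74 ± 0.23 (SE). The brightest probe set, which the study's list does not hold, read 578, 527 and 754 in wild-type and 401, 349 and 543 in heterozygous samples. The genotypes overlapped only through heterozygous replicate 3, which lay above wild-type replicate 2, and the difference was −0.53 ± 0.22 (SE). Within same-numbered pairs it came to −0.53, −0.59 and −0.47. The third probe set stayed between 18.5 and 21.6 in all samples, with a difference of 0.02 ± 0.12 (SE).

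The lens epithelium markers, which mark cells of the kind that use Myo5b and Myo6, are given beside these values. Their sum was 9264, 8314 and 9966 in wild-type and 8612, 7977 and 9184 in heterozygous samples, and Gja1, at 5014 to 7004, made up most of it. The median log2 signal over the 6 genes, which is less weighted to Gja1, was 9.09, 9.14 and 9.59 in wild-type and 8.55, 8.79 and 8.90 in heterozygous samples, without overlap. Gja1 differed by 0.04, and the other 5 genes had negative differences, Pdgfra without overlap at −0.59 ± 0.13 (SE). Pax6, of which the heterozygous mice lack 1 copy, is among these 5, at −0.34. Foxe3, also among them, was at background. In each sample the median rests on the middle pair of the 6 genes. That pair was Pdgfra and Cdh1, or Pdgfra and Sox2 in heterozygous replicate 1. The median therefore does not stand for all 6 genes. The part of lens epithelium cells in the Myo5b and Myo6 differences was not tested.

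Start regions are shown for Myo5a and Myo6, the 2 genes with more than 1 probe set of 50 or more in which all such probe sets read lower in heterozygous lenses. They come from RefSeq (build GRCm38.p6), run 5′ to 3′ on the + strand from 250 bases before to 50 bases after the annotated start, and lie at chr9:75070956-75071255 for Myo5a and at chr9:80164784-80165083 for Myo6. Capitals mark the GC box, GGGCGG, and the CCAAT box, searched on both strands with overlapping matches counted separately.

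Myo5a: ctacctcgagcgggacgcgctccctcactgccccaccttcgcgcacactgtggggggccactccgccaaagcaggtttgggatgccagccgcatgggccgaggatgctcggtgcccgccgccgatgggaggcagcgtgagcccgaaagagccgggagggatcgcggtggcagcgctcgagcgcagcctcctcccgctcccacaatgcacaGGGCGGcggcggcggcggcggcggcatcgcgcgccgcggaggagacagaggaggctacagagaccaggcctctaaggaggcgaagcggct

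Myo6: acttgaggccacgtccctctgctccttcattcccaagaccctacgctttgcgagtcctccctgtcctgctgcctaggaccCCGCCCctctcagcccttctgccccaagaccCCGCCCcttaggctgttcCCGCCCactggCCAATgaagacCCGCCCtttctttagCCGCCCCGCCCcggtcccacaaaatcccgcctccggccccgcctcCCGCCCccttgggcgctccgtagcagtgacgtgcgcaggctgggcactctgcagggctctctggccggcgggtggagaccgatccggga

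The Myo5a region held 1 GC box and no CCAAT box, and the Myo6 region 7 GC boxes and 1 CCAAT box. Both were rich in G and C, at 72.0% and 68.3%, against a median of 53.0% over 32544 start regions of the same length. RefSeq start regions were matched for 7 of the 9 genes, 10 regions in all, with G and C from 48.0% to 74.3%. A GC box was present in 8 of the 10 and a CCAAT box in 4, against 35.9% and 37.4% of all start regions. The table of start regions used here was not complete and held none for Myo1d and Myo5b.

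Myo1c is the class I motor that links membranes and glucose transporter vesicles to cortical actin. It read higher in Pax6 heterozygous lenses at its brightest probe set and at a dim one with a median of 20.15. The brightest, whose probes can match several transcripts by its Affymetrix suffix, read 84.2, 34.6 and 47.1 in wild-type and 192, 60.0 and 65.2 in heterozygous samples. Heterozygous replicate 1 stood far above all others, and the genotypes overlapped through wild-type replicate 1. The difference was 0.82 ± 0.53 (SE), and it was 0.28 when heterozygous replicate 1 was left out, 0.53 when wild-type replicate 2 was, and 1.17 when wild-type replicate 1 was. Within same-numbered pairs the heterozygous sample was higher by 1.19, 0.79 and 0.47. The dim probe set read 19.2, 16.4 and 13.1 in wild-type and 53.3, 23.2 and 21.1 in heterozygous samples. It did not overlap between genotypes and differed by 0.89 ± 0.37 (SE), or by 0.47 without heterozygous replicate 1. The other 2 Myo1c probe sets stayed between 8.64 and 17.6, with differences of 0.04 and −0.02.

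Heterozygous replicate 1, the highest sample for Myo1c, was also the highest for the sums of endothelium, macrophage, mesenchyme and pigment cell markers. It was not the highest for retina markers. The sum of the 8 measured endothelium markers was 1023, 716 and 631 in wild-type and 1694, 956 and 837 in heterozygous samples. Tek, at 421 to 927, made up most of it. All 8 had positive differences, but 5 had medians under 50, and 1 of these, Pecam1, was within the background guide. Macrophage markers summed to 940, 331 and 339 in wild-type and to 1134, 834 and 209 in heterozygous samples. Mesenchyme markers summed to 562, 217 and 466 in wild-type and to 612, 239 and 149 in heterozygous samples. Medians were under 50 for 5 of the 8 macrophage and 6 of the 7 mesenchyme markers. Retina markers summed to 349, 321 and 300 in wild-type and to 567, 600 and 305 in heterozygous samples. Most of that gap lay in Otx2, at 194, 156 and 156 in wild-type and 442, 411 and 185 in heterozygous samples, while Elavl4 was lower without overlap at −0.50 and 2 of the 6 markers were within the background guide. The part of these cells in the Myo1c values was not tested.

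The other class I members gave no signal above the dim range. Myo1d, a class I motor known for setting left-right asymmetry in flies, had 1 probe set that read between 11.7 and 16.8 over the 6 samples, a difference of −0.12 ± 0.16 (SE). Myo1e, a class I motor of endocytosis and of the kidney filter, had 3 probe sets with values from 8.42 to 17.3 and differences of 0.22, −0.01 and 0.08. Of the 13 dim myosin probe sets, 7 had medians within the background guide, and at such signals RMA pulls ratios toward 1.

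Myo9a, a class IX motor with a signalling domain in its tail, had a single probe set of moderate signal. It read 121, 49.99 and 99.6 in wild-type and 112, 80.9 and 113 in heterozygous samples. Replicate 2 was the lowest of each genotype, and the genotypes overlapped. The difference was 0.26 ± 0.34 (SE), and it turned to −0.12 without wild-type replicate 2. Myo10, the motor of filopodium tips, had 3 probe sets with values from 8.08 to 15.95 and differences of 0.01, 0.10 and −0.13.

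Myh9, whose mutation in people causes a platelet disorder that can include cataract, was bright in all samples. At the probe set with the highest median the wild-type samples read 3853, 2369 and 3622 and the heterozygous samples 4452, 2267 and 3674. At the next they read 4233, 2770 and 3616 and then 5191, 3013 and 3382. At both probe sets replicate 1 was the highest and replicate 2 the lowest of each genotype, and the genotypes overlapped. The differences were 0.06 ± 0.30 and 0.11 ± 0.25 (SE). They turned to −0.16 and −0.06 without wild-type replicate 2 and to −0.15 and −0.13 without heterozygous replicate 1, and the first turned to −0.01 without heterozygous replicate 3. The dim Myh9 probe sets differed by 0.24 and −0.07.

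**Figure D2:**
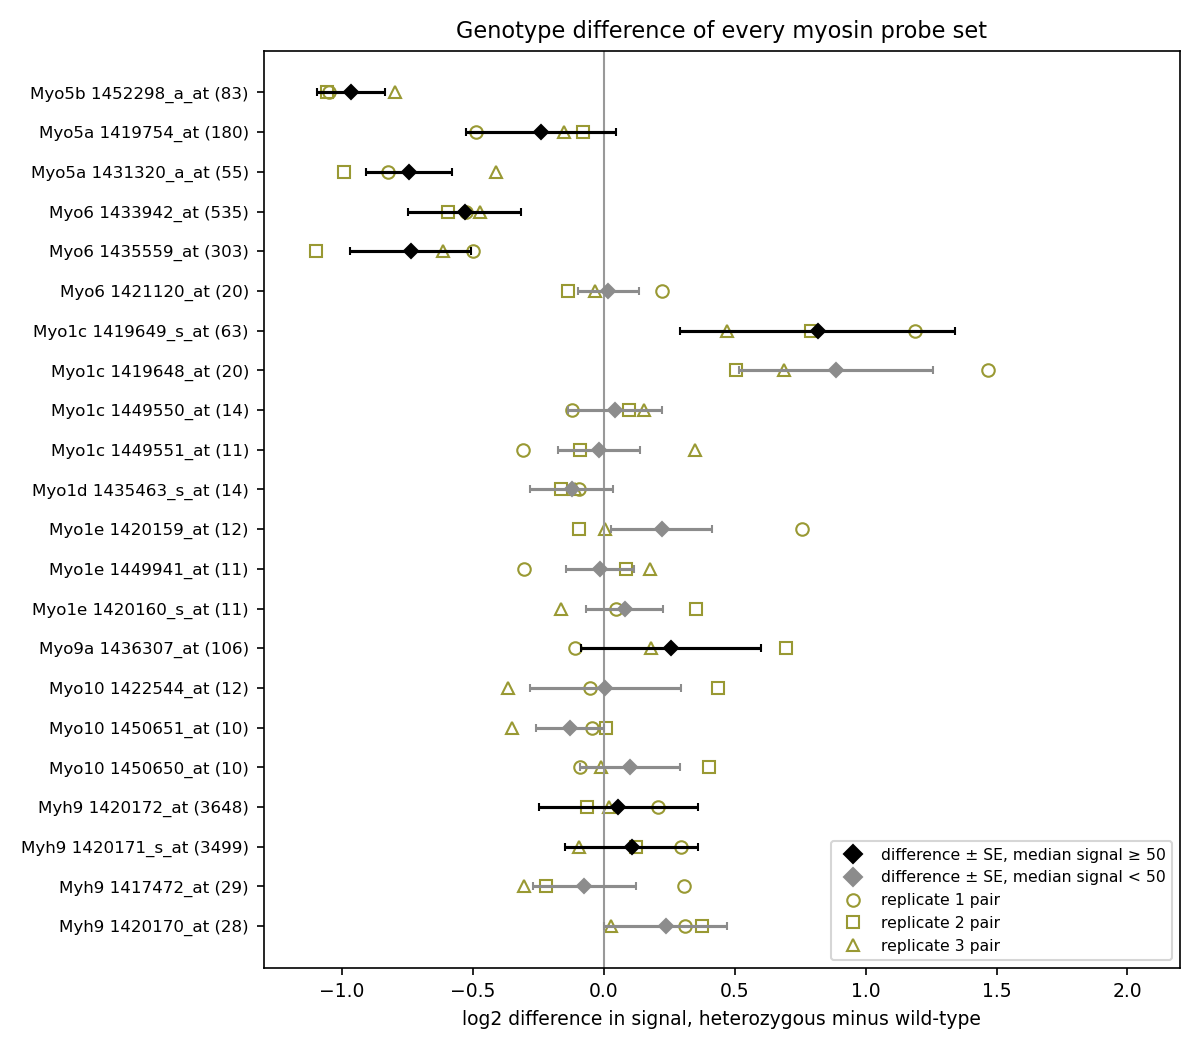
Genotype difference of all 22 myosin probe sets. The horizontal axis is the log2 difference in signal (heterozygous less wild-type), diamonds give the difference with its SE (black for a median signal of at least 50, grey below), open symbols the 3 same-numbered pairs, and the median signal stands in brackets. Myo5b lies lowest at −0.97, and the brightest Myo1c probe set and a dim one lie highest at 0.82 and 0.89. Most grey diamonds lie near 0.

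With limma, 0 of the 22 probe sets passed an adjusted p of 0.05 for genotype, where 0.00% of all probe sets did. At an unadjusted p under 0.05 there were 4, those of Myo5b, the listed Myo5a and both bright Myo6 probe sets, beside 1.99% of all probe sets. The methods' t-test gave 3 at p under 0.05, beside 2.94% of all, and 4 at p under 0.10, beside 5.86%. Values did not overlap, with heterozygous samples lower, in 3 probe sets, beside 3.53% of all. They did not overlap, with heterozygous samples higher, in 1 probe set, the dimmer of Myo1c, beside 2.65%. With the replicate number as a block 0 of the 22 passed the adjusted threshold, beside 0.00884% of all. The SE with the block was 0.11 for Myo5b, 0.15 for the brightest Myo1c and 0.10 for the brightest Myo6 probe set. Without the block, as given elsewhere in the text, these SEs were 0.13, 0.53 and 0.22. Over all 22 probe sets, 10 differences were negative and 12 positive, with a median of 0.01. These shares are given only for scale, since this contrast was in view when the genes were picked.

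Whether myosin signals followed the replicate number was asked with a limma F-test of that number beside genotype, which played no part in choosing the genes and was added after the data had been seen. It was passed by 5 of the 22 probe sets (adjusted p under 0.05), beside 19.4% of all probe sets, so the share is near the background. The 5 were the brightest Myo1c, the brighter Myo5a, the brightest Myo6 and both bright Myh9 probe sets. The 9 probe sets of at least 50 include all 5, beside 3103 of the 8865 probe sets of that signal. Myo1c changed most, with replicate 1 above replicate 2 by 2.79-fold on average over the genotypes (adjusted p = 0.0118). For Myh9 replicate 1 was 1.79-fold above replicate 2 at the brightest probe set (adjusted p = 0.0185) and 1.62-fold above it at the next (adjusted p = 0.0429). For Myo5a replicate 3 was 1.73-fold above replicate 1 (adjusted p = 0.0326), and for Myo6 replicate 3 was 1.49-fold above replicate 2 (adjusted p = 0.0420). Myo5b moved by 1.16-fold between its lowest and highest replicate number (adjusted p = 0.508). Myo9a missed the threshold at 1.83-fold (adjusted p = 0.0532).

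**Figure D3:**
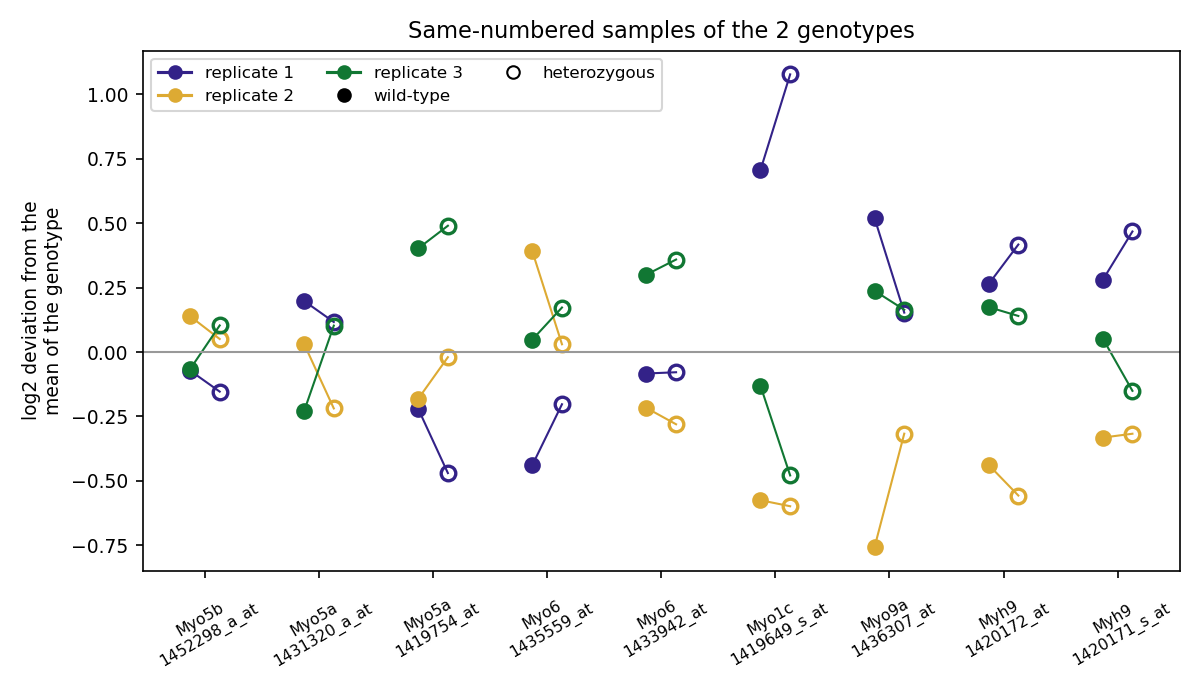
Log2 deviation of each sample from the mean of its genotype for the 9 myosin probe sets with a median of at least 50. Colors mark the replicate number, filled circles wild-type and open circles heterozygous samples, and lines join the same number. Replicate 1 lies above both others in Myo1c and in both Myh9 probe sets, replicate 3 above both others in the brighter Myo5a and the brightest Myo6 probe set, and no Myo5b sample lies farther from its mean than heterozygous replicate 1 at −0.15.

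The probe sets whose profiles over the 6 samples lay closest to that of Myo5b were found among 6387 single-gene probe sets with a median of at least 100. Closeness was the root mean square difference of log2 values, each centred on its own mean. The first was Spon1 (F-spondin, a matrix protein), with a distance of 0.13 and values of 238, 277 and 251 in wild-type and 134, 121 and 162 in heterozygous samples. Next came Camk1d, a calmodulin-dependent kinase, at 0.14, Zfp185, a LIM domain gene, at 0.18, Emid1 at 0.19, and Ralgps2, an exchange factor for Ral, at 0.22. The listed Myo6 probe set was at 0.22, the brightest Myo6 probe set at 0.35 and the listed Myo5a probe set at 0.24. The brighter Myo5a probe set was farther away at 0.48, Myh9 at 0.67 and 0.68, Myo9a at 0.79 and Myo1c at 1.17. The listed Myo5a and the Myo1c probe set have medians under 100 and so lie outside the pool that was searched. The choice of genotype-sensitive genes and the small number of samples make such closeness a description only.

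Other myosins and the proteins that work with them were read from lists, each gene at its brightest probe set. No gene of the 7 lists passed the adjusted threshold for genotype in either direction. Over all 12393 genes the median difference was −0.01, with 53.0% below 0. Of 10 measured other unconventional myosins 7 were above 0 and 3 below, with a median of 0.03, and 4 had a median signal of at least 100. Myo7b, a motor of intestinal microvilli, read 223, 432 and 311 in wild-type and 328, 406 and 465 in heterozygous samples, a difference of 0.35 ± 0.26 (SE). Myo1h, a further class I motor, differed by 0.21 ± 0.23 (SE). Myo5c, the third class V motor and on the study's list, read 14.1, 14.0 and 15.95 in wild-type and 13.4, 11.3 and 11.9 in heterozygous samples, near background.

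Of the other conventional heavy chains, Myh7b, Myh10 and Myh13 had no probe set of their own and were not measured. All 9 measured ones, among them Myh14 of nonmuscle myosin IIC, had medians at or below 12.4, within the background guide. Their median difference was −0.09, with 6 below 0, and it was 0.05 without wild-type replicate 3. That sample held some transcripts of striated muscle. Myh8, a perinatal muscle heavy chain, read 67.1 there and between 7.69 and 10.3 in the other 5 samples. Acta1, skeletal muscle actin, read 105 there and at most 11.8 elsewhere. Actc1 and Tnnt3 read 56.4 and 73.9 there, and at most 10.01 and 14.2 elsewhere. The other muscle markers did not follow. Des, Ckm, Tnnt1 and Myog read between 10.7 and 12.4 there, near background. Acta2 and Tagln, at 34.3 and 20.9, were lowest in that sample. Of the 9 muscle markers, 6 had medians within the background guide, and their sum was 336 in that sample and between 164 and 316 in the others.

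Light chains and calmodulins bind the neck of a myosin, and 14 of their genes were measured. Their median was −0.03, with 9 below 0. Myl9, a smooth muscle and nonmuscle regulatory light chain, read 199, 283 and 123 in wild-type and 288, 450 and 175 in heterozygous samples. Each same-numbered heterozygous sample was the higher, but the genotypes overlapped, and the difference was 0.57 ± 0.43 (SE). Myl12a, a nonmuscle regulatory light chain, differed by 0.15 ± 0.15 (SE). Its close relative Myl12b differed by −0.10 ± 0.21 (SE) at the brightest probe set and by −0.46 ± 0.19 at the one on the study's list. The muscle light chains Myl1 and Mylpf read 325 and 158 in wild-type replicate 3, and at most 12.8 and 16.04 in the other samples.

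Partners that link class V myosins to cargo showed little difference between genotypes. Of 12 measured genes 6 were above and 6 below 0, with a median of −0.01. Rab11a, the recycling endosome GTPase that recruits Myo5b, read between 815 and 882 in all 6 samples, a difference of 0.01 ± 0.10 (SE). Rab10, a GTPase of secretion, differed by −0.24 ± 0.18 (SE), and Dynll2, the dynein light chain that also sits on myosin V, by 0.11 ± 0.17. Mlph, the melanophilin that ties Myo5a to melanosomes, read between 8.83 and 14.5, near background.

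Among 10 measured partners of myosin VI, 4 were above and 6 below 0, with a median of −0.02. Cltb, a clathrin light chain on the study's list, read 135, 121 and 118 in wild-type and 208, 202 and 269 in heterozygous samples, without overlap, a difference of 0.85 ± 0.15 (SE). Tom1l1, an endosomal adaptor, read 296, 316 and 281 in wild-type and 202, 245 and 184 in heterozygous samples, also without overlap, a difference of −0.51 ± 0.14 (SE). The other clathrin chains, Clta and Cltc, differed by 0.05 and −0.04. Tom1l2, a relative of Tom1l1, read between 9.74 and 13.6 at its listed probe set, near background.

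Of 15 measured regulators of myosin II, kinases, phosphatases and tropomyosins among them, 10 were above and 5 below 0, with a median of 0.05. Tpm2, a tropomyosin that covers actin filaments, differed by −0.54 ± 0.39 (SE) at its brightest probe set and by −0.46 ± 0.17 at the listed one, where the genotypes did not overlap. Tpm4, another tropomyosin, differed by 0.42 ± 0.37 (SE), with 1127 in heterozygous replicate 1 and at most 698 in the others. Rock1, the kinase that activates myosin II, differed by 0.02 ± 0.19 (SE) at the brightest probe set. At the listed one it differed by −0.20 ± 0.11, and the genotypes did not overlap. The study also reported Rock1 as lower by quantitative RT-PCR on other RNA preparations. Of 11 measured genes of myosin folding and filopodia 4 were above and 7 below 0, with a median of −0.03, among them Itgb1, an integrin bound by Myo10, at −0.22 ± 0.21 (SE), and Evl, an actin regulator, at −0.13 ± 0.43. Enah, an actin regulator on the study's list, differed by 0.05 ± 0.17 (SE) at the brightest probe set and read between 8.60 and 11.04 at the listed one.

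**Figure D4:**
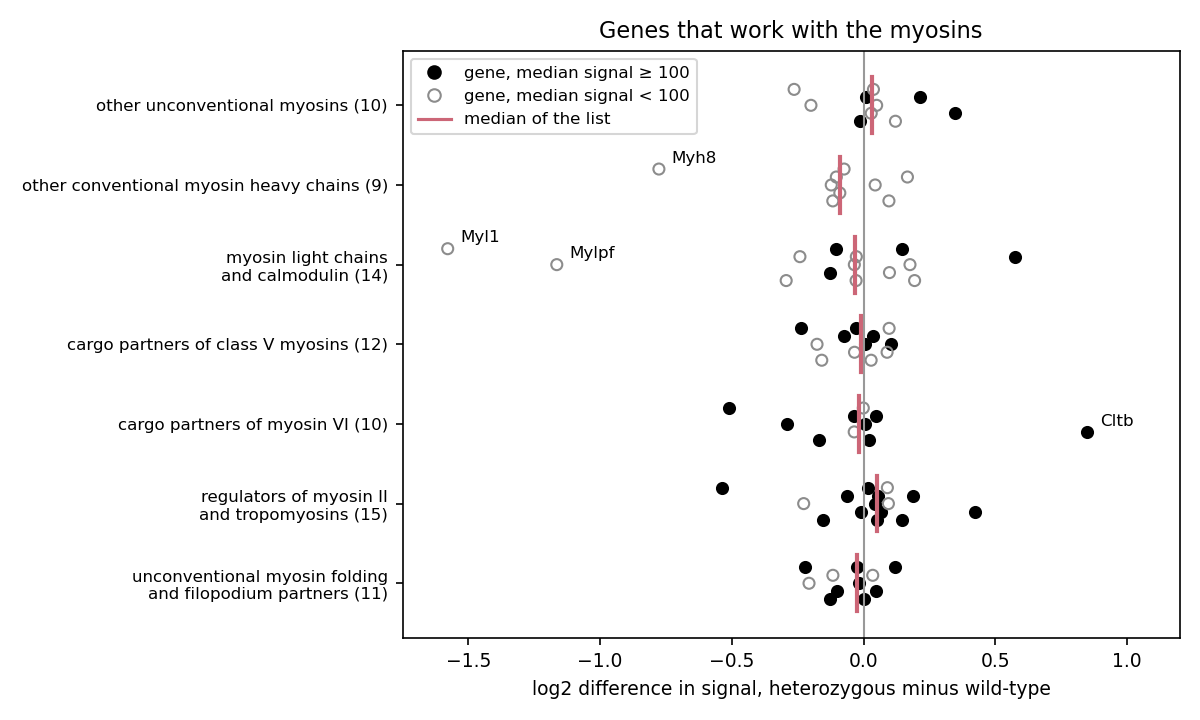
Genotype differences of the genes in 7 lists, each at its brightest probe set. The horizontal axis is the log2 difference in signal (heterozygous less wild-type), filled circles are genes with a median signal of at least 100, open circles dimmer ones, red bars list medians, and numbers in brackets the genes measured. List medians lie between −0.09 and 0.05, with Cltb on the higher side and the muscle genes Myl1, Mylpf and Myh8 on the lower side.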

How the data were processed

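Lens RNA of 6 newborn mice, 3 of each genotype, was amplified with a NuGEN kit and measured on Affymetrix arrays. Intensities as deposited are on the linear scale and come from RMA on the CEL files, and the RMA version is not given in the sources used here. Arrays carry no counts or depth. Log2 signals were taken with no further normalization, 64 control probe sets were left out, and 22626 probe sets were fitted with limma 3.58.1 in R 4.3.3 (lmFit and eBayes, genotype only), with Benjamini-Hochberg adjustment over all of them. Genes were named from GEO's platform annotation: 20380 probe sets had 1 gene, 691 several and 1555 none, and 20351 were matched to RefSeq by Entrez number. The 9 genes and the lists of partners and markers were chosen with earlier results of these data known.

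Named genes were all probe sets of the 9 genes, the 2 genes of each partner list with the largest differences at a median signal of at least 100, and the genes on the study's list. Others, such as Rab11a, Mlph, Clta, Cltc and the muscle genes, were chosen after their values were seen. Replicate numbers were taken to pair the samples, since every same-numbered pair correlated above 0.1 (0.646, 0.734 and 0.604). The main fit held genotype only, so its SEs do not use this pairing. The replicate block was run as an alternative. Steps were tested on simulated data. Figures used matplotlib 3.10.9 in Python 3.11.15. The methods call the samples biological replicates, and the labels number them only.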

Additional observations from a re-analysis of the deposited data

How the results depend on the processing

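With 3 mice per genotype, dim probe sets compressed by RMA and same-numbered samples that move together, small differences can go undetected. Across all probe sets, 0 passed for genotype with limma, and 2 with the replicate block, neither of them a myosin. The methods' t-test gave 1327 at its unadjusted p under 0.10, of which 4 were myosin probe sets, and none passed it adjusted. The study's methods also name a further filter, Pavlidis Template Matching, which was not run here. The 450 probe sets at an unadjusted p under 0.05 became 125 and 87 at a median signal of at least 50 and 100 and 2042 with the replicate block, with a range of 315 to 598 when 1 sample was left out. Among the myosin probe sets the count of 4 became 1 at a median of at least 100 and 6 with the replicate block, and ranged from 2 (without heterozygous replicate 1) to 5 when 1 sample was left out. The 6 with the block were the same 4 and the Myo1c probe sets that differed by 0.82 and 0.89. The Myo5b difference was −0.80 with log2(signal + 16) and ranged from −1.02 to −0.89 when 1 sample was left out. The median of the other conventional heavy chains ranged from −0.13 to 0.0465, the latter without wild-type replicate 3, and could not be had at a median signal of at least 50. Of 288 recomputed myosin differences 287 moved by less than 1 SD, and 27 changed sign. Of those, 6 belonged to probe sets of at least 50, namely Myo9a and the bright Myh9 probe sets. Part of the 288 could not move. The replicate block, the intensity trend and the signal filters leave each difference unchanged by construction. So does averaging the probe sets of a gene that has only 1. No myosin probe set passed the adjusted threshold with the replicate block, quantile normalization, median centring, an intensity trend, array weights, either signal filter or any 1 sample left out.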

Other observations

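Mylk, the kinase that activates smooth and nonmuscle myosin II, was nearly the same in same-numbered samples of the 2 genotypes while it varied widely between replicate numbers. It read 950, 356 and 509 in wild-type replicates 1, 2 and 3 and 972, 357 and 486 in heterozygous replicates 1, 2 and 3, a genotype difference of −0.01 ± 0.48 (SE). Evl, an actin regulator of the Ena family, read 118, 253 and 109 in wild-type and 111, 226 and 98.8 in heterozygous samples, with replicate 2 the highest of each genotype. Unc45a, a chaperone of myosin heads, read 74.1, 91.8 and 35.8 and then 66.7, 93.6 and 25.3, with replicate 3 the lowest of each genotype. These 3 genes were singled out after their values were seen, and what the replicate numbers share is not stated.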
